A study of Homo sapiens with 4 samples.

Results

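NR4A1, NR4A2, NR4A3, EGR1, EGR2, EGR3, IER2, IER3, KLF2 and KLF6 are immediate early genes outside the AP-1 group. These 10 of the 26364 symbols in the count tables form the set described. They were chosen by name with their library-scaled levels in these 4 libraries already known, so every level and ratio given for them is a description with no test. RNA came from NCI-H460, an established line of human non-small cell lung cancer and the only line used. Cultures were irradiated with gamma rays (4 Gy) or left at 0 Gy, and for the next 48 h they had either 2 uM DZNep (3-deazaneplanocin A, an inhibitor of S-adenosylhomocysteine hydrolase) or the solvent DMSO alone. Groups are called by agent and dose (DMSO 0 Gy and DMSO 4 Gy, then DZNep 0 Gy and DZNep 4 Gy), and each was 1 library with no replicate. The layout addresses how expression differs by drug, by dose and by their combination.

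Immediate early genes are transcribed within minutes of a growth factor, stress or second-messenger signal, without new protein synthesis, and their transcripts are usually short-lived. Signals reach them largely through MAP kinases and protein kinase A, which act on SRF and its ETS partners at CArG boxes and on CREB at cAMP response elements (CRE). Most of the proteins are transcription factors: the NR4A genes encode orphan nuclear receptors whose activity follows their amount, and the EGR and KLF genes encode zinc-finger factors. IER2 is a small nuclear protein, and IER3 is a stress-induced protein linked to cell survival and ERK signalling.

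Libraries held 112461380 to 136594350 counts, and 13378 symbols that reached 1 CPM in at least 2 of them were kept for testing. For this filter CPM used the plain library total. In the levels given below, CPM is the count divided by the TMM-scaled library size and expressed per fixed number of counts, as usual for this unit. Of the 10 genes, 8 passed, each of them above 1 CPM in all 4 libraries, while EGR2 and EGR3 did not. Among epithelial markers KRT8, KRT18 and KRT19 were abundant (summed with EPCAM and CDH1, 1496 and 1764 CPM in DMSO and 3885 and 4296 CPM in DZNep), but EPCAM and CDH1 each stayed under 0.5 CPM. Of these 5 markers KRT8 and KRT18 carried the higher sum in DZNep, while EPCAM was lower there (68 and 50 counts in DMSO, 22 and 5 in DZNep) and KRT19 was at 153.3 and 247.4 CPM in DMSO and 145.5 and 178.1 in DZNep. The part of these markers in the results was not tested. Blood markers summed to 7.34 to 9.84 CPM, nearly all from CD14, with PTPRC at 0 counts in 3 libraries and CD3E at 0 in 3. The 3 endothelial markers summed to at most 0.703 CPM, and the 4 fibroblast markers to 9.61 to 20.0 CPM, most of it COL1A1.

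Promoter sequence is shown for the 5 genes in which a search for 3 kinds of regulatory motif found a match, as a description of the promoters. Whether the motifs have a part in the levels was not tested. RefSeq (GRCh38.p14) gave the 250 bases before the annotated start for 7 of the 10 genes, and NR4A2, EGR3 and IER3 had no entry. Sequences run 5′ to 3′ on the gene's strand. Capitals mark CRE cores (TGACG, the first part of a CRE, on either strand), CArG boxes and MEF2 sites. The windows are chr9:99821635-99821884 (plus strand) for NR4A3, chr5:138465229-138465478 (plus) for EGR1, chr10:62816367-62816616 (minus) for the third of 3 EGR2 starts, chr19:13150161-13150410 (plus) for IER2 and chr19:16324576-16324825 (plus) for KLF2.
NR4A3: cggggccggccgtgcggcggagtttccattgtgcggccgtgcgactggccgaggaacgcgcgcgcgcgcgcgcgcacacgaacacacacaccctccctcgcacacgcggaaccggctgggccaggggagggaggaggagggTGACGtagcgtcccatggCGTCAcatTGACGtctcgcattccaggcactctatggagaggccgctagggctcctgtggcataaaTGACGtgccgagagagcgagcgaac
EGR1: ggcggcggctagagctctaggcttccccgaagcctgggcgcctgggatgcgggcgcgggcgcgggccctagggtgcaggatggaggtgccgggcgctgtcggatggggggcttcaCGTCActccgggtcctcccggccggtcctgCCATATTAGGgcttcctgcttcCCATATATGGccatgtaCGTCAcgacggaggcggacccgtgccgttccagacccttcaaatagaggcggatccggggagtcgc
EGR2: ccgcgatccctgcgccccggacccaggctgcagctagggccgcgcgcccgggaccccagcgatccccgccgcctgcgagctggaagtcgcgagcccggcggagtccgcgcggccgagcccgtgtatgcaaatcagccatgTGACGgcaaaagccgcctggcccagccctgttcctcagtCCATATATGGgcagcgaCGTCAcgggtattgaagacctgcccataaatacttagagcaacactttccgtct
IER2: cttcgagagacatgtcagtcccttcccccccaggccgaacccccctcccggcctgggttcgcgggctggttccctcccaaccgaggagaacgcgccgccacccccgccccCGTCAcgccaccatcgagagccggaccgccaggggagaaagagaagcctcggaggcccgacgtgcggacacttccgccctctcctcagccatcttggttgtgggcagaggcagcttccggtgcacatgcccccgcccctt
KLF2: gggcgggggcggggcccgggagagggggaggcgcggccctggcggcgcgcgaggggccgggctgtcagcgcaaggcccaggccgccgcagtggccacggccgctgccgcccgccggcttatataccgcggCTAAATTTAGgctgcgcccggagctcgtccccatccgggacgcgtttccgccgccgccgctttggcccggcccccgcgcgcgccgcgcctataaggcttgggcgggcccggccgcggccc

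EGR1 carried 2 CArG boxes, at -105 to -96 and -83 to -74 from the start, and 2 CRE cores. Of 35116 promoters of the same length, 0.0313% held 2 or more CArG boxes and 1.16% held at least 1. EGR2 carried 1 CArG box, at -71 to -62, with 2 CRE cores, and 0.194% of promoters held both kinds of match. Its other starts had neither.

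NR4A3 carried 4 CRE cores, at first bases -109, -91, -83 and -25, and no CArG box. At least 4 CRE cores stood in 0.236% of promoters, at least 2 in 4.76% and at least 1 in 21.2%. IER2 had 1 CRE core, and KLF2 had 1 MEF2 site, CTAAATTTAG, at -120 to -111, a motif present in 2.80% of promoters. The promoters of NR4A1 (2 starts) and KLF6 held none of these 3 motifs.

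Other motifs were searched on both strands as well. The full CRE, TGACGTCA (1.65% of promoters), which contains the CRE core, the NR4A response element AAAGGTCA (1.05%), the EGR site GCGTGGGCG (0.720%) and the AP-1 site TGAGTCA (4.20%) were not found in any of the 7 genes. The GC box GGGGCGGGG (15.1%) stood in IER2, KLF2 and the first and second EGR2 starts. The ETS core CCGGAA (14.5%) stood in IER2 and the first NR4A1 start. A match is a run of letters and not a measured binding site, and the absence of a match concerns these windows alone.

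**Figure D1:**
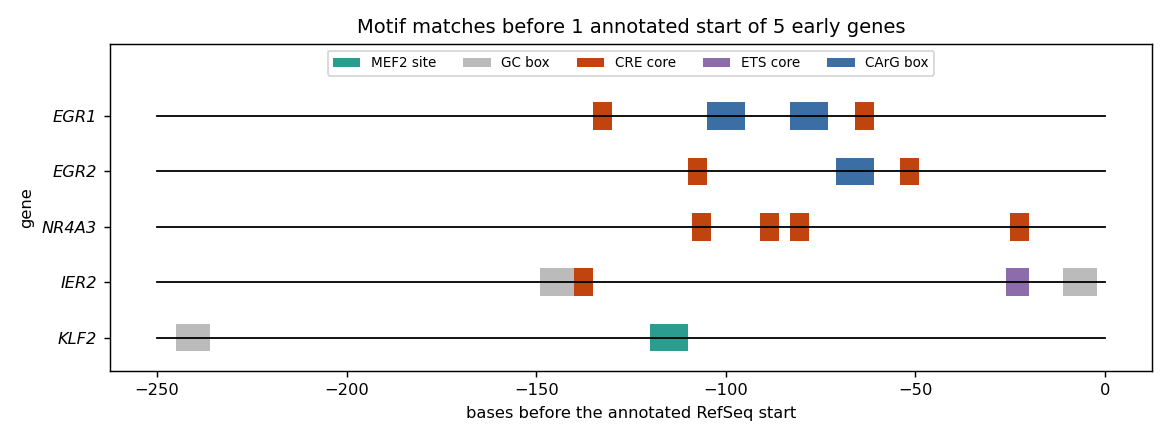
Positions of motif matches in the promoters of the 5 early genes printed here, plotted as bases before the annotated start (x axis), with 1 row per gene and 1 colour per motif. EGR1 and the third EGR2 start combine CArG boxes with CRE cores, while NR4A3 has 4 CRE cores and no CArG box.

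Among the nuclear receptors, all 3 NR4A genes stood higher in both DZNep libraries than in both DMSO libraries. NR4A1 (Nur77), the receptor known for its part in apoptosis and T cell selection, was at 295.4 CPM in DMSO 0 Gy, 508.7 in DMSO 4 Gy, 1902 in DZNep 0 Gy and 1666 in DZNep 4 Gy. DZNep over DMSO came to 6.44-fold at 0 Gy (95% counting interval 6.37 to 6.51) and 3.27-fold at 4 Gy (3.24 to 3.31). Both drug libraries therefore lie above both solvent libraries, of which DMSO 4 Gy is the nearer. How many of all tested genes separate in this way, in either direction, was not counted, so the layout is a description. In bulk RNA, a higher level in every cell and a larger share of cells with the transcript cannot be told apart.

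NR4A3 (NOR1), the receptor fused in extraskeletal myxoid chondrosarcoma, took the values 42.0, 80.6, 202.6 and 219.8 CPM in the same order of libraries. Its DZNep ratio was 4.83-fold at 0 Gy (4.69 to 4.97) and 2.73-fold at 4 Gy (2.66 to 2.79). Unlike NR4A1, its highest library was DZNep 4 Gy. NR4A2 (Nurr1), needed for midbrain dopamine neurons, stood at 25.0, 26.9, 91.6 and 70.4 CPM, with DZNep ratios of 3.67-fold (3.53 to 3.81) and 2.62-fold (2.51 to 2.73). Its DMSO libraries lay close together and its DZNep libraries above both.

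Per kilobase of exon, NR4A1 was the most abundant NR4A gene in every library, with 84.6% to 89.3% of the family's CPM per kb. It ranked 851st of 12575 genes in DMSO 0 Gy and 134th in DZNep 0 Gy by CPM per kb. The summed CPM of the 3 genes was 362.4 in DMSO 0 Gy, 616.3 in DMSO 4 Gy, 2196 in DZNep 0 Gy and 1956 in DZNep 4 Gy. The family total was thus highest with the drug alone.

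The zinc-finger EGR genes did not move as 1 group. EGR1, the most studied of them and a common readout of ERK signalling, stood at 8.65 CPM in DMSO 0 Gy, 14.4 in DMSO 4 Gy, 4.16 in DZNep 0 Gy and 3.77 in DZNep 4 Gy. DZNep over DMSO was 0.481-fold at 0 Gy (0.433 to 0.533) and 0.262-fold at 4 Gy (0.235 to 0.292). Of the 10 genes, EGR1 alone was lower in both DZNep libraries than in both DMSO libraries. The DZNep libraries differed from each other by less than the counting interval (log2 ratio of 4 Gy over 0 Gy -0.14, -0.33 to 0.05).

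EGR3, which acts downstream of calcineurin and NFAT in lymphocytes, took the opposite position at very low counts. It had 3 counts in DMSO 0 Gy, 2 in DMSO 4 Gy, 126 in DZNep 0 Gy and 112 in DZNep 4 Gy, and it stayed under 1 CPM in all of them. The ratio was 44.9-fold at 0 Gy (15.0 to 221) and 55.3-fold at 4 Gy (15.0 to 462). The DMSO counts set the width of these intervals. EGR2, a regulator of Schwann cell myelination, had 56, 108, 56 and 65 counts in the same order. Its highest library was DMSO 4 Gy, and the other 3 could not be separated at this depth.

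Per kilobase, EGR1 made up 95.4% of the family's CPM per kb in DMSO 0 Gy and 93.7% in DMSO 4 Gy, against 78.8% in DZNep 0 Gy and 74.9% in DZNep 4 Gy. EGR3 made up 0.169% and 0.0818% in DMSO and 13.0% and 13.8% in DZNep. The mix within the family therefore differed between drug and solvent, while its summed CPM was 9.07 and 15.4 in DMSO and 5.56 and 5.33 in DZNep.

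Both IER genes stood higher in the DZNep libraries. IER3 (IEX-1) was at 60.1 and 98.7 CPM in DMSO (0 and 4 Gy) and at 234.5 and 262.1 CPM in DZNep (0 and 4 Gy), so DZNep over DMSO was 3.90-fold at 0 Gy (3.81 to 3.99) and 2.66-fold at 4 Gy (2.60 to 2.71). IER2 was at 21.6, 21.5, 52.6 and 62.3 CPM, with ratios of 2.44-fold (2.34 to 2.55) and 2.90-fold (2.77 to 3.04). Unlike that of the NR4A genes, IER3 and KLF2, the drug ratio of IER2 was larger at 4 Gy than at 0 Gy. IER3 carried 86.3% to 91.2% of the CPM per kb of this pair.

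The KLF genes differed from each other. KLF2, a factor of endothelial and T cell quiescence, was at 27.8 CPM in DMSO 0 Gy, 25.3 in DMSO 4 Gy, 76.6 in DZNep 0 Gy and 52.5 in DZNep 4 Gy. Its DZNep ratio was 2.75-fold at 0 Gy (2.65 to 2.86) and 2.07-fold at 4 Gy (1.98 to 2.17), the latter next to the 2-fold line. Both drug libraries lay above both solvent libraries, with the irradiated drug library the lower of the pair. KLF6, a growth-restraining factor, was at 34.4, 32.8, 33.0 and 38.1 CPM, a 1.16-fold range over all 4 libraries. Its drug and solvent libraries overlapped.

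**Figure D2:**
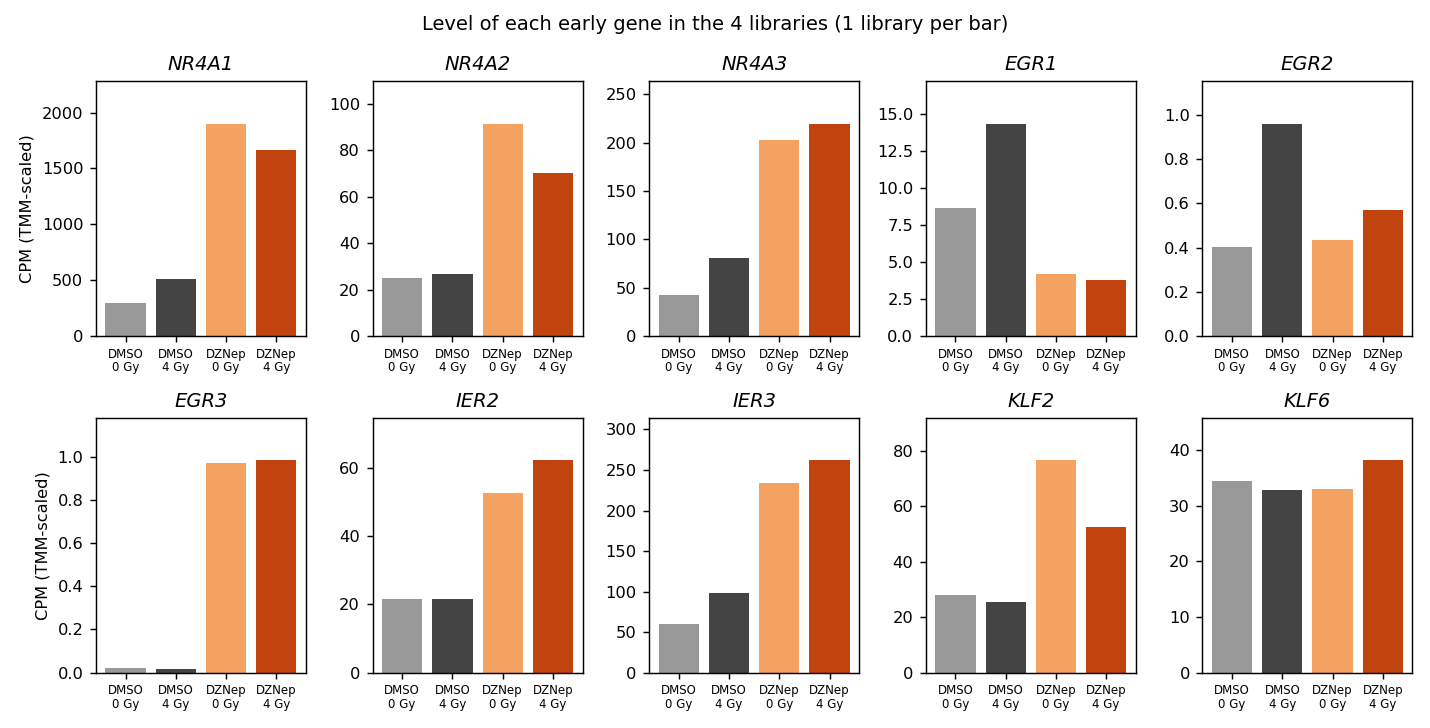
Level of each early gene (y axis, TMM-scaled CPM, with its own linear scale from 0 in each panel) in each of the 4 libraries (x axis), 1 panel per gene and 1 bar per library, without error bars. NR4A1 runs from 295.4 CPM in DMSO 0 Gy to 1902 CPM in DZNep 0 Gy, and EGR1 from 14.4 CPM in DMSO 4 Gy to 3.77 CPM in DZNep 4 Gy.

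At 0 Gy, 7 of the 10 genes (NR4A1, NR4A2, NR4A3, EGR3, IER2, IER3 and KLF2) were at least 2-fold higher with DZNep and 1, EGR1, was at least 2-fold lower. Over all tested genes 5.48% were at least 2-fold higher and 5.87% at least 2-fold lower. At 4 Gy the counts were again 7 and 1, and 4.71% and 6.40% of all tested genes lay that far apart. EGR3 was not among the tested genes, and of the 8 that were, 6 were higher and 1 lower at each dose. Because the genes were picked with these levels known, nothing is read from the difference. Among the 8 tested genes the median log2 ratio was 1.67 at 0 Gy and 1.40 at 4 Gy, against -0.03 and 0.00 over all tested genes. NR4A1 had the 67th highest ratio of 13378 at 0 Gy and the 168th at 4 Gy, and EGR1 the 707th lowest and the 140th lowest.

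**Figure D3:**
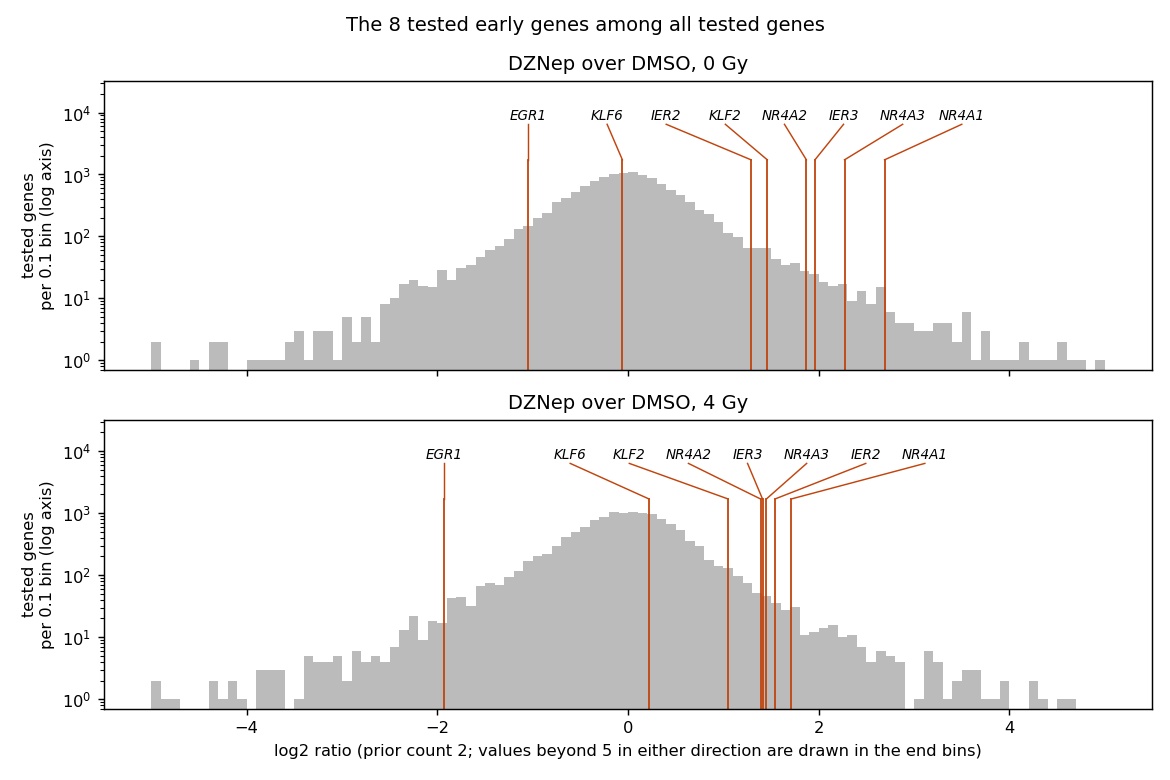
Histogram of log2 ratios of DZNep over DMSO across the 13378 tested genes (log y axis, genes per bin) at 0 Gy and 4 Gy, with a line for each of the 8 tested early genes. The lines for 6 genes lie at 1.05 or more in both panels, KLF6 lies near 0, and EGR1 lies at -1.05 and -1.93.

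For the 8 genes at least 2-fold apart with DZNep, the radiation log2 ratio stayed under 1 in both arms. In DMSO, 4 Gy over 0 Gy gave log2 ratios of 0.94 for NR4A3 (0.89 to 0.99), 0.78 for NR4A1 (0.77 to 0.80), 0.73 for EGR1 (0.62 to 0.84) and 0.71 for IER3 (0.67 to 0.76). EGR2, which was too low to test, gave 1.22 and was the 1 gene of 10 at least 2-fold higher, with 0 at least 2-fold lower. Of the 8 tested genes 0 were that far apart in either direction, against 3.60% higher and 1.55% lower over all tested genes. NR4A2 (0.11), KLF6 (-0.07) and KLF2 (-0.13) were nearer to 0. IER2, at -0.01, changed sign with the scaling (-0.03 to 0.02), as did EGR3 in DZNep (0.02, range -0.03 to 0.02).

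In DZNep, 0 of the 10 genes were 2-fold apart between 4 Gy and 0 Gy in either direction, against 1.82% higher and 1.10% lower over all tested genes. KLF2 was at -0.54 (-0.59 to -0.50), NR4A2 at -0.38 (-0.42 to -0.34) and NR4A1 at -0.19 (-0.20 to -0.18) in log2 ratio. IER2 was at 0.24, KLF6 at 0.21, IER3 at 0.16 and NR4A3 at 0.12. The radiation log2 ratio in DZNep minus that in DMSO was -0.98 for NR4A1, -0.87 for EGR1, -0.82 for NR4A3 and -0.55 for IER3. It was -0.49 for NR4A2, -0.41 for KLF2, 0.25 for IER2 and 0.27 for KLF6. Counted from the lowest of 13378 tested genes, these differences ranked from 452nd (NR4A1) to 9984th (KLF6). EGR2 (-0.83) and EGR3 (0.17) were too low to rank. With 1 library a group the difference was not tested.

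**Figure D4:**
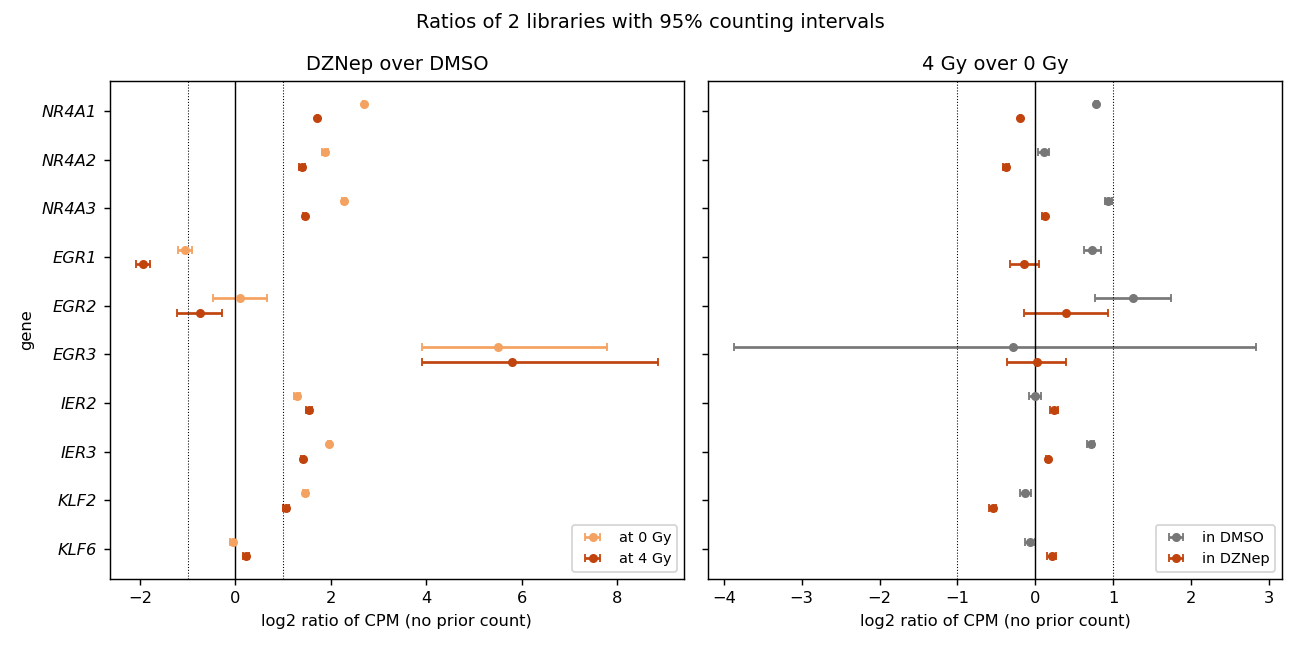
Log2 ratios of 2 libraries for each early gene (x axis, log2 ratio of CPM without a prior count), with 95% counting intervals as bars, for the drug at 0 Gy and 4 Gy and for radiation in DMSO and DZNep, and dotted lines at 2-fold. For NR4A1 the drug ratio is 2.69 at 0 Gy and 1.71 at 4 Gy, while the radiation ratio is 0.78 in DMSO and -0.19 in DZNep.

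With both treatments against neither, 6 of the 10 genes were at least 2-fold higher and EGR1 was at least 2-fold lower. Of the 8 tested genes, 5 were higher and 1 was lower, where 7.68% and 6.64% of all tested genes lay that far apart. NR4A1 came to 5.64-fold (5.58 to 5.70), NR4A3 to 5.24-fold (5.09 to 5.39) and IER3 to 4.36-fold (4.25 to 4.46). KLF2, at 1.89-fold (1.81 to 1.97), was the gene that left the higher set. This comparison and the drug comparison at 0 Gy share the DMSO 0 Gy library.

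Profiles over the 4 libraries were compared by the Euclidean distance between centred log2(CPM + 0.5) values. Over the 8505 genes at 10 CPM or more in at least 1 library, the nearest to NR4A1 were LTBP1, a latent TGF-beta binding protein (0.15), NFASC, a cell adhesion protein (0.18), and AKAP12, a kinase scaffold (0.29). Nearest to NR4A3 were GPRC5A (0.07), RBM24 (0.13) and the protease inhibitor SERPINE2 (0.16), and nearest to IER3 were JUNB, an AP-1 subunit (0.11), HDAC5 (0.12) and SERPINE2 (0.18). EGR2 and EGR3 stayed under 10 CPM and were left out. Among the other early genes, NR4A3 and IER3 were the closest pair (0.23) and NR4A1 and EGR1 the most distant (3.59).

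Annotated transcripts on the opposite strand overlap exons of NR4A1 (754 bases), IER2 (756), IER3 (359) and EGR3 (164) in GENCODE v29. The use of strand in counting is not given in the sources used here, so reads from those partners cannot be told apart from the genes' own.

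Other genes of the same pathways were tested over all 4 libraries in a model of drug plus dose, by the quasi-likelihood F test of edgeR, with p-values adjusted by Benjamini-Hochberg over 13378 genes. That test called 1446 genes higher (10.8%) and 1640 lower (12.3%) with DZNep, and 290 higher (2.17%) and 120 lower (0.897%) with radiation. With plain library sizes, rises made up 56.9% of the radiation calls in place of 70.7%. The lists overlap and were compiled with earlier results of these libraries known, so their counts are descriptions. Where a list below has 0 falls with DZNep by edgeR, at most 1 of its genes fell at an unadjusted p under 0.05 and DESeq2 called 0. Where it has 0 rises or 0 falls with radiation, at most 4 genes did so at an unadjusted p under 0.05, and DESeq2 called 0 to 2 rises and 0 to 1 falls. Median fitted log2 changes over all tested genes were -0.02 for DZNep and 0.01 for radiation.

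Of 43 tested other early genes, 24 rose and 0 fell with DZNep (median log2 change 0.68), and 8 rose and 0 fell with radiation (median 0.35). ARC, a synaptic plasticity gene, was at 0.556 and 0.828 CPM in DMSO and 7.05 and 7.99 CPM in DZNep. It passed the filter on low counts only through the DZNep libraries, so its difference is a description, and without it 23 of 42 genes rose with DZNep. FOSB, still counted among those 23, also needed a DZNep library to pass. BTG1, an antiproliferative gene, rose by 2.05 (SE 0.20, adjusted p = 3.19e-05). BTG2, a p53 target, was at 9.92, 59.7, 6.87 and 46.6 CPM and rose with radiation by 2.68 (SE 0.18, adjusted p = 8.13e-06), as did GADD45A by 2.01 (SE 0.17, adjusted p = 9.53e-05). Neither passed for DZNep (adjusted p = 0.0727 and 0.229). Without the other factor in the model, 11 rose with DZNep and 0 with radiation, and with only genes at 10 CPM or more in at least 2 libraries, 2 fell with DZNep.

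Of the 7 AP-1 genes, JUNB (1.59, SE 0.17) and FOSB (1.55, SE 0.41) rose with DZNep and FOSL2 (0.76, SE 0.18) with radiation. The list medians were 0.29 and 0.42. FOSB was low, at 0.390 and 1.09 CPM in DMSO and 1.98 and 1.91 CPM in DZNep. It needed a DZNep library to pass the filter on low counts, so its difference is a description.

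**Figure D5:**
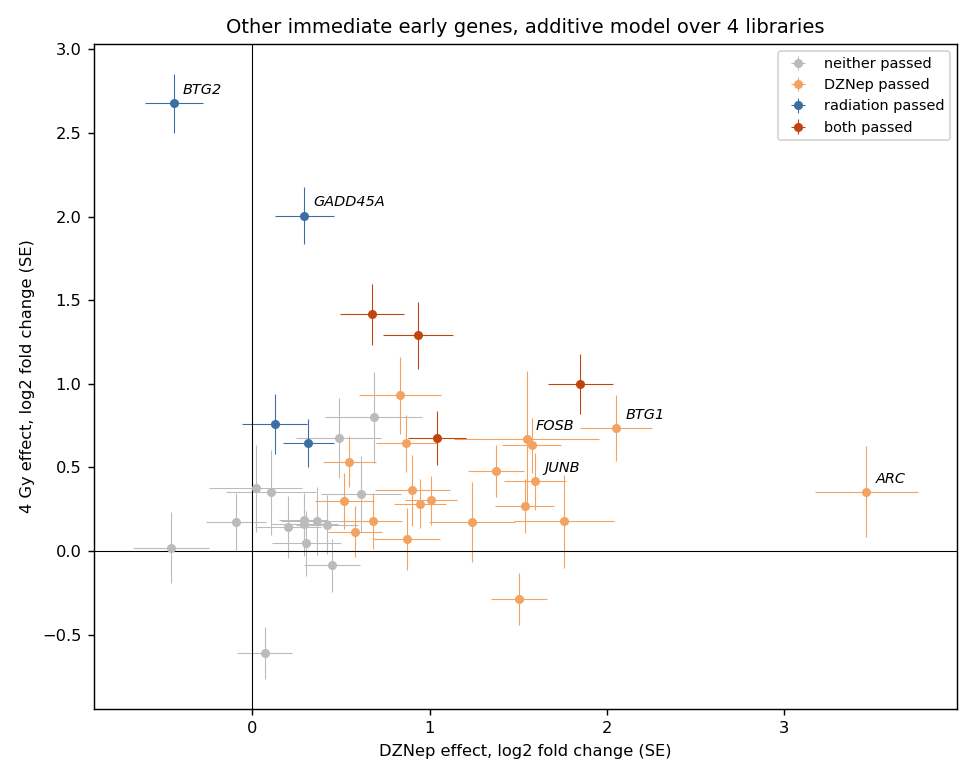
Fitted log2 changes with DZNep (x axis) and with radiation (y axis), with their SE as bars, for the 43 tested other early genes, coloured by which test each passed at an adjusted p of 0.05. BTG1 lies far along the DZNep axis (2.05), as does ARC (3.46), which entered the test only through the DZNep libraries, and BTG2 and GADD45A lie far along the radiation axis (2.68 and 2.01).

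Among 18 MAP kinase phosphatases and feedback genes, 9 rose and 0 fell with DZNep (median 0.63), and 0 were called for radiation (median 0.18). DUSP5, a nuclear ERK phosphatase, rose by 1.53 (SE 0.18, adjusted p = 9.1e-05). DUSP1, a phosphatase of p38 and JNK, rose by 1.27 (SE 0.19, adjusted p = 0.000498), PHLDA1 by 1.21 (SE 0.15) and DUSP4 by 1.02 (SE 0.16).

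Of 9 tested SRF, TCF and MRTF genes, which act at or follow CArG boxes, 4 rose with DZNep (median 0.25). SRF itself rose by 0.68 (SE 0.17, adjusted p = 0.012), the LIM protein FHL2 by 1.81 (SE 0.16, adjusted p = 1.33e-05), and the actins ACTB by 0.80 (SE 0.14) and ACTG1 by 0.48 (SE 0.12). ACTG1 fell by 0.47 with radiation (adjusted p = 0.0498), the 1 call for radiation on that list (median 0.13), which DESeq2 did not make.

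Of 14 CREB and cAMP feedback genes, 3 rose and 2 fell with DZNep (median 0.18), and 0 were called for radiation by edgeR (median 0.08). The kinase subunit PRKACA fell by 0.97 (SE 0.15, adjusted p = 0.000725) and CREM by 0.87 (SE 0.15, adjusted p = 0.00119), while the phosphodiesterase PDE4B (0.87, SE 0.15) and the coactivator CREBBP (0.81, SE 0.14) rose. Of 8 genes of the MEK5, ERK5 and MEF2 route, which drives KLF2 in endothelium, MEF2B (1.04, SE 0.30) and MAPK7, which encodes ERK5 (0.54, SE 0.16), rose with DZNep (list medians 0.21 and 0.03). Of the 4 tested NAB corepressors of EGR proteins and RXR partners of NR4A receptors, 0 were called for either effect by edgeR or DESeq2, and 0 had an unadjusted p under 0.05 (medians 0.10 and 0.03).

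Of 14 tested KLF and SP relatives, 5 rose and 0 fell with DZNep (median 0.36; radiation median 0.13). KLF10, a TGF-beta-induced factor, was at 84.8, 160.1, 307.8 and 391.4 CPM and rose by 1.58 (SE 0.17, adjusted p = 4.88e-05), and KLF4, a pluripotency factor, rose by 1.38 (SE 0.16, adjusted p = 8.35e-05). KLF11 (0.96, SE 0.19) and KLF5 (0.65, SE 0.16) rose as well. Relatives outside these 5 were not called for DZNep. KLF2 and KLF6 were described by ratios of 2 libraries alone, so they are not set against these calls.

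Of 10 factors that bind or degrade AU-rich transcripts, to which many early transcripts belong, ZFP36 rose with DZNep (0.52, SE 0.17) and ZFP36L1 with radiation (0.65, SE 0.14), with medians of 0.03 and -0.20. Only 2 of 7 genes known to follow KLF2 were tested, and THBD rose with DZNep (1.58, SE 0.29, list medians 0.62 and -0.09). Of 9 tested genes known to follow EGR1, 4 rose and 0 fell with DZNep (median 0.25). TNF, at 0.173 and 0.267 CPM in DMSO and 1.15 and 1.51 in DZNep, passed the filter only through the DZNep libraries, and without it 3 of 8 rose: ICAM1 (1.79, SE 0.18), HPSE (0.66, SE 0.17) and PDGFA (0.63, SE 0.20). ICAM1 also rose with radiation (0.93, SE 0.17, list median 0.08).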

How the data were processed

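RNA was measured in 4 libraries, 1 per group. Per the labels' protocols, RNA was extracted with Trizol and prepared with the Lexogen SENSE mRNA kit. Each library's table, as deposited by the authors, holds unnormalized whole-number counts for gene symbols. TopHat, edgeR and hg19 are named in the submitters' processing notes. How reads were counted (program, annotation, strand) is not given in the sources used here. Library totals at 0 Gy were 136594350 in DMSO and 128255695 in DZNep, and at 4 Gy 112461380 and 116234177, where 3 counts equal 0.0217 to 0.0267 CPM. Even values made up 55.9% to 58.1% of counts from 1 to 59, so mates may have been counted separately, and counting intervals are then too narrow.

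Genes at 1 CPM in at least 2 libraries (13378) were scaled by TMM (factors 0.979 to 1.01) with edgeR 4.0.16 in R 4.3.3. Ratios of 2 libraries used a prior count of 2, and folds and their exact conditional binomial 95% intervals used none and cover counting error only. Drug and dose effects were fitted additively with edgeR's quasi-likelihood test (1 residual and 11.5 prior degrees of freedom, common coefficient of variation 0.163) and Benjamini-Hochberg adjustment at 0.05. With 1 library per group, the residual degree of freedom is the difference between the drug effects at 0 Gy and 4 Gy. SE and p-values therefore set an effect against that difference and a spread shared across genes, not against replicates. Nothing states that libraries came from separate cultures, so p-values reflect only how these libraries vary, which may be technical. SE is the log2 change divided by the square root of F. In simulated libraries of 13378 genes with a DZNep effect, the test recovered 79% of 100 genes changed 2-fold and 100% of 100 changed 4-fold. It made 2 false calls among the 13178 unchanged genes, and 0 genes were called for radiation, which had no simulated effect. The fit to the data called 1446 rises and 1640 falls with DZNep, many more genes than the simulation changed. The recovery and false-call rates therefore hold for the simulated libraries alone and are not estimates for these data.

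The 10 early genes and the gene lists were chosen with earlier results of these data known. From each list, up to 4 genes with the largest effect among those passing were named, and the 3 nearest profiles for the 3 early genes of widest range. Exon lengths and overlaps came from GENCODE v29 by symbol and promoters from RefSeq. Tried as alternatives were RLE scaling, plain library sizes, DESeq2 1.42.0, a prior count of 0.5, other filters, a model with 1 factor and, chosen after seeing the data, TMM over all symbols and list counts without genes under 1 CPM in both DMSO libraries.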

Additional observations from a re-analysis of the deposited data

Results flagged for a closer look

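In 3 of the early genes the radiation ratio had opposite signs in the 2 drug arms, with both counting intervals on their own side of 0. With 1 library per group the difference was not tested, and its cause was not tested. The intervals cover counting error only, so at this depth small differences can meet this rule. The share of all tested genes that meet it was not counted. The 3 genes are therefore a description, and whether they stand out from other genes is not known. NR4A1 had a log2 ratio of 4 Gy over 0 Gy of 0.78 in DMSO and -0.19 in DZNep, a difference of -0.98. For NR4A2 the ratios were 0.11 and -0.38, a difference of -0.49. KLF6 had -0.07 in DMSO, with an interval that reached 0.998-fold, and 0.21 in DZNep, a difference of 0.27. The signs were the same under RLE scaling, plain library size, a prior count of 0.5 and TMM over all symbols, but the intervals were taken at the main scaling only. For KLF6 in DMSO the ratio ranged from -0.09 to -0.04 across these settings, so its place among the 3 genes is not secure. The intervals are also too narrow if mates were counted separately.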

How the results depend on the processing

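No paired analysis was possible because each group has 1 library and the labels give no replicate numbers. The 50 ratios of early genes under 4 alternatives gave 200 values, of which 187 moved by no more than counting error. Among ratios at least 2-fold apart, 0 changed sign. Below 2-fold, the sign of the radiation ratio changed for IER2 in DMSO and for EGR3 in DZNep. The largest move was 0.62 on the log2 scale. The numbers of early genes 2-fold apart were the same under every scaling. With genes at 10 CPM or more in at least 1 library, genes 2-fold apart numbered 642 in place of 1518 for DZNep at 0 Gy, 604 in place of 1486 at 4 Gy, 278 in place of 690 for radiation in DMSO, 110 in place of 390 in DZNep and 905 in place of 1915 for both treatments against neither. With the other factor left out, DZNep calls by edgeR were 355 rises (1446 with it) and 366 falls (1640), and radiation calls 0 and 0, with 295 and 229 at an unadjusted p under 0.05 and 447 and 214 calls by DESeq2 in the additive model. Radiation rises (290) were 134 without a filter, 590 at 10 CPM in at least 2 libraries, 182 with TMM over all symbols and 447 with DESeq2. Radiation falls (120) were 266 with plain library size, 65 without a filter, 441 at 10 CPM, 71 with TMM over all symbols and 214 with DESeq2. Among other early genes, 20 to 25 rose with DZNep across the settings with both factors, and 5 to 13 rose and 0 to 1 fell with radiation. The cause of these moves was not tested. Depth limits EGR3 in DMSO (3 and 2 counts) and EGR2 (56 to 108 counts), and no group has a replicate.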

Other observations

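Relatives of the early genes that were too low to test are given as counts, in DMSO (0 and 4 Gy) and then in DZNep (0 and 4 Gy). KLF8, a zinc-finger repressor named here after its values were seen, had 8, 10, 118 and 32 counts, so its highest library was DZNep 0 Gy. EGR4 had 0 counts in 3 libraries and 4 in DZNep 4 Gy. KLF15 had 117, 65, 49 and 48 counts. Among tested relatives, IER5, a radiation-responsive early gene, was at 3.75, 5.80, 5.43 and 12.7 CPM and rose with DZNep by 0.84 (SE 0.23, adjusted p = 0.0211 by edgeR's quasi-likelihood test), while its radiation change of 0.93 (SE 0.23, adjusted p = 0.05, above the threshold before rounding) did not pass.

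PECAM1, an endothelial adhesion molecule, had 1, 4, 40 and 21 counts and VWF, a clotting factor, 1, 0, 49 and 17, both chosen after their values were seen. CDH5, the endothelial cadherin, had 0, 0, 2 and 0 counts in the same libraries.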
